A study of Sus scrofa with 6 samples.

Results

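The genes described here encode receptors, junction proteins and a secreted protein of the blood vessel wall, and the secreted growth factor VEGFA. They were measured in the backfat of male pigs castrated as piglets and of their intact full brothers. The members were chosen by gene symbol: every probe set on the Affymetrix porcine array whose only symbol is TEK, TIE1, KDR, FLT1, PECAM1, CDH5, VWF, EDNRB, ENG or VEGFA. This gave 23 probe sets for 10 genes, out of 24123 probe sets and 6765 named genes on the array. Where a gene has several probe sets they are told apart here by their brightness, and the plots carry their full names. Barrows had lost both testes by surgery at 7 days of age, and boars kept theirs. Both groups were crosses of Pietrain sires with Landrace dams, came from 15 pairs of full brothers, were weaned at 30 days, ate freely and were killed at 175 days. The tissue was the middle backfat layer over the 6th rib. There were 3 barrow arrays and 3 boar arrays, and each array read RNA pooled in equal amounts from 5 pigs, so a replicate is a pool, p-values measure the spread between pools, and the spread between single pigs was not measured.

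Blood vessels are lined by endothelial cells, which carry specialised receptor tyrosine kinases that control vessel growth and stability. KDR and FLT1 bind vascular endothelial growth factors such as VEGFA, and TEK binds the angiopoietins and acts together with its relative TIE1. CDH5 and PECAM1 hold neighbouring endothelial cells together, and VWF is stored in these cells and released for clotting. In fat, the capillary bed delivers lipid and oxygen, and VEGFA is made largely by the adipocytes themselves.

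In barrow backfat 1 of the 15 member probe sets bright enough to be tested was called lower, and none was called higher. It reads TEK, the angiopoietin receptor, and its signal was lower by 27.9% (95% interval -37.9% to -16.5%, limma adjusted p = 0.047). This call held under 8 of 14 alternative settings. The other tested TEK probe set, with overlapping groups, differed by -12.9% (limma adjusted p = 0.73). The second-brightest VEGFA probe set differed by -24.5% (95% interval -33.7% to -13.9%), with a limma adjusted p of 0.054, and of 0.024 with the replicate number as a block. The brightest VEGFA probe set differed by 0.467% (limma adjusted p = 0.99). PECAM1, ENG and TIE1 had differences of -18.2% to -9.17% that did not pass the test. The pools of the 2 groups did not overlap for them, a separation with barrows lower that 9.76% of all tested probe sets had. KDR (-24.5%) and FLT1 (15.8%) had overlapping groups in their tested probe sets and did not pass (limma adjusted p = 0.54 and 0.73). CDH5, VWF and EDNRB had differences between -0.05 and 0.00 on the log2 scale, with intervals given below.

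The values are MAS5 signals, the Affymetrix summary of matched and mismatched probes, on a linear scale on which each array had been scaled to the same mean. Differences are barrow minus boar on log2(signal + 16), which understates changes of dim probe sets, and the percentages are taken from that scale. A probe set was tested if its mean over all arrays lay in the upper 60%, and called if limma's p, adjusted over all 14399 tested probe sets by Benjamini-Hochberg, was under 0.05. By this rule 1.16% of all tested probe sets were called in either direction and 0.458% were called lower in barrows. With the replicate block 2.35% were called. Pools of the same group correlated at 0.978 to 0.988 and pools of different groups at 0.975 to 0.983. Barrow replicate 2 lay farthest out on the first principal component (21.4, against 4.1 to 9.5 for the other barrow pools and -17.2 to -2.2 for the boar pools). The log2 3'/5' ratio of the GAPDH control, a sign of RNA quality, ran from 1.09 to 1.44 in barrow pools and from 1.25 to 1.36 in boar pools. That of the actin control was higher, from 1.85 to 2.13 in barrow pools and from 1.99 to 2.13 in boar pools. Without barrow replicate 2 the TEK difference was -0.51 (adjusted p = 0.031) and that of the second-brightest VEGFA probe set -0.48 (adjusted p = 0.011).

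Endothelial markers that are not among the 10 genes were read as a check of the label. Of 11 such markers 6 had a probe set on the array, CLDN5, ESAM, EGFL7, ERG, NOS3 and CD34, and all 6 passed the filter on dim probe sets, which is not a test of detection. Their median difference was -0.15, with 5 of 6 below 0, against 51.5% of all genes. Limma called 0 of the 6, and 2 had an unadjusted p under 0.05, against 13.7% of all genes. Their summed signal ran from 4021 to 4896 in barrow pools and from 5181 to 5492 in boar pools, without overlap. CLDN5 contributes most to this sum, so it does not show a separation of the markers as a set. Taken singly, 2 of the 6, CLDN5 and ERG, had separated groups with barrows lower, against 10.1% of all genes. The groups overlapped for ESAM, EGFL7, NOS3 and CD34. In whole tissue, fewer endothelial cells and less of these RNAs per cell cannot be told apart.

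**Figure D1:**
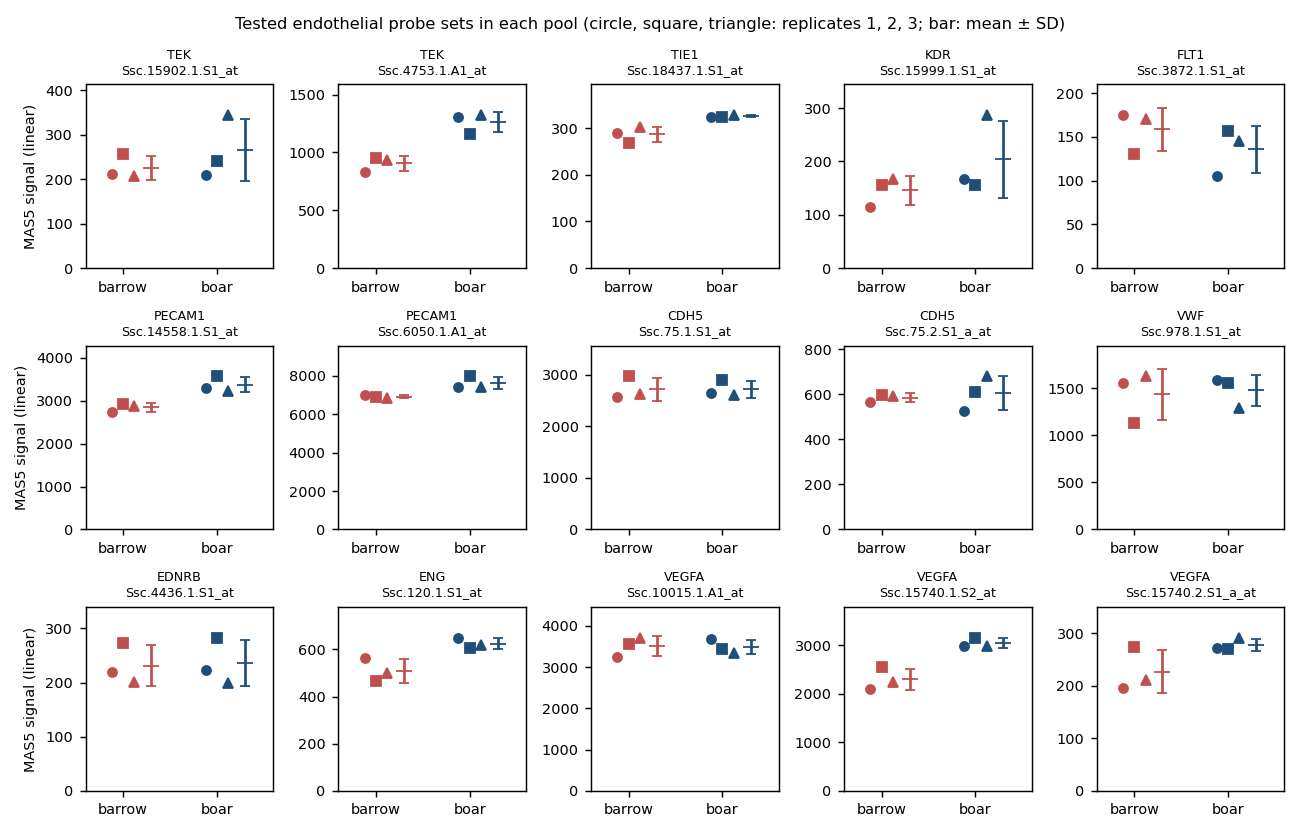
MAS5 signal (linear scale from 0) of each of the 15 tested probe sets in the 3 barrow pools (red) and the 3 boar pools (blue), with mean ± SD beside them. All 3 barrow pools lie below all 3 boar pools for the brighter TEK probe set, TIE1, both PECAM1 probe sets, ENG and the second-brightest VEGFA probe set, and the groups overlap in the other 9.

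Among the angiopoietin receptors, the brighter tested TEK probe set read 828, 951 and 937 in barrow pools, against 1303, 1160 and 1323 in boar pools. Every barrow pool lay below every boar pool. The means were 905 ± 67.6 in barrows and 1262 ± 89.0 in boars (SD, n = 3 each), a log2 difference of -0.47 (95% interval -0.69 to -0.26, limma adjusted p = 0.047). TEK ranked 163 of 14399 by p, and 167 probe sets were called, so it lay close to the threshold. TEK no longer passed when barrow replicate 1 (limma adjusted p = 0.19), barrow replicate 3 (0.1), boar replicate 1 (0.25) or boar replicate 3 (0.24) was left out. It also did not pass with no filter on dim probe sets (0.068) or with no intensity trend in the variance (0.15). Its difference lay between -0.53 and -0.41 under all 14 alternatives.

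The dimmer tested TEK probe set read 212, 256 and 207 in barrow pools, against 210, 241 and 344 in boar pools. Here the groups overlapped, and the higher boar mean came from boar replicate 3. Its difference was -0.20 (95% interval -0.61 to 0.21, limma adjusted p = 0.73), an interval that includes the value of the brighter probe set. Within arrays, the brighter minus the dimmer TEK probe set was 1.94 ± 0.14 on the log2 scale in barrows and 2.21 ± 0.33 in boars (SD, n = 3 each, exact permutation p = 0.2, 2-sided). With 3 pools against 3 this test cannot give a p below 0.1. The remaining TEK probe set was not tested, with signals of 1.2 to 40.6 in barrow pools and 5.39 to 17.6 in boar pools.

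TIE1, which has no established ligand of its own and modulates TEK, read 289, 269 and 302 in barrow pools, against 324, 324 and 328 in boar pools. The boar pools were nearly equal and all 3 barrow pools lay below them. The difference was -0.17 (95% interval -0.43 to 0.09, limma adjusted p = 0.61).

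KDR, the main signalling receptor for VEGFA, read 115, 155 and 168 in barrow pools, against 168, 156 and 287 in boar pools. A single pool, boar replicate 3, stood well above the other 5. The difference of -0.41 had a wide interval (-0.92 to 0.11, limma adjusted p = 0.54), and without boar replicate 3 it was -0.15 (adjusted p = 0.89). The second KDR probe set was untested, at 6.85 to 10.6 in barrow pools and 9.25 to 44.4 in boar pools, and boar replicate 3 was its highest pool too.

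FLT1, which binds VEGFA tightly but signals weakly, read 175, 130 and 171 in barrow pools, against 105, 157 and 145 in boar pools. Among the tested probe sets it had the highest difference (0.21), but its groups overlapped and its interval ran from -0.22 to 0.64 (limma adjusted p = 0.73). Of its 2 untested probe sets, the dimmer averaged 34.4 ± 7.48 in barrows and 34.4 ± 10.7 in boars, and the other averaged 38.5 ± 23.1 in barrows and 62.2 ± 20.3 in boars (SD, n = 3 each). The 2 VEGFA receptors thus lay on opposite sides of 0, with intervals that overlap each other, and the difference between them was not tested.

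ENG, or endoglin, a co-receptor for TGF-beta family ligands on endothelium, read 564, 464 and 502 in barrow pools, against 650, 605 and 620 in boar pools. The groups did not overlap. The means were 510 ± 50.1 in barrows and 625 ± 22.9 in boars (SD, n = 3 each), a difference of -0.29 (95% interval -0.53 to -0.05) that did not pass over all probe sets (limma adjusted p = 0.30).

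EDNRB, the endothelin B receptor, which on endothelium takes up endothelin and promotes nitric oxide release, read 220, 273 and 201 in barrow pools, against 224, 283 and 200 in boar pools. The 2 groups ran side by side, replicate 2 being the highest and replicate 3 the lowest in each. The difference was -0.02 (95% interval -0.40 to 0.35, limma adjusted p = 0.98). In percent the interval ran from -24.0% to 27.8%, so equality is not shown. The other EDNRB probe set was untested, with signals of 20.1 to 31.1 in barrow pools and 3.19 to 29.7 in boar pools.

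**Figure D2:**
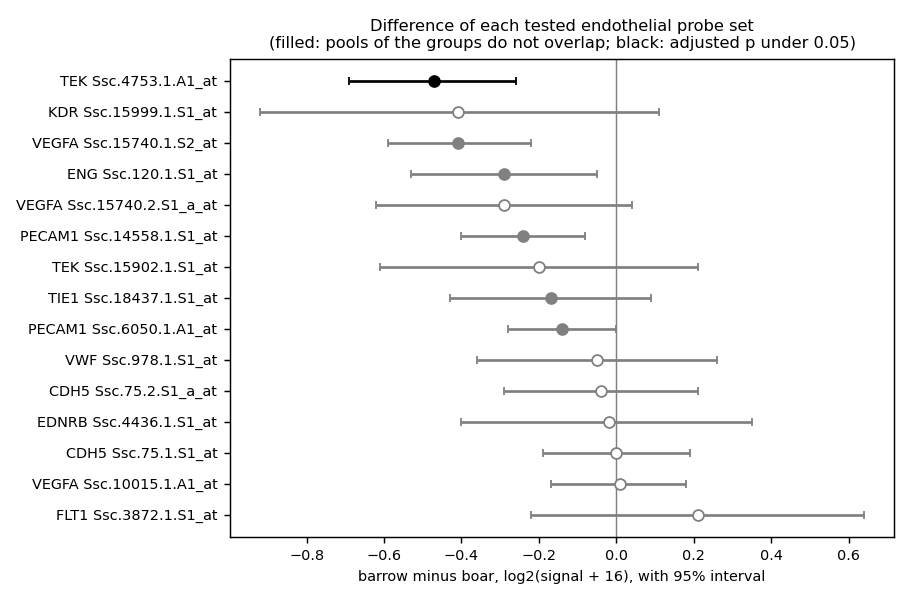
Barrow minus boar difference on log2(signal + 16) for each of the 15 tested probe sets, with the 95% interval of the limma model. Filled points mark the 6 probe sets whose pools do not overlap, all 6 left of 0, and the black point is the TEK probe set called at an adjusted p of 0.047.

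Among the junction genes, PECAM1, an adhesion protein at endothelial contacts that platelets and leukocytes also carry, was lower in barrows in both probe sets. The dimmer read 2741, 2937 and 2869 in barrow pools, against 3311, 3572 and 3237 in boar pools. The brighter read 6992, 6877 and 6840 in barrow pools, against 7433, 7965 and 7418 in boar pools. Neither had overlapping groups, and boar replicate 2 was the highest pool in both. The differences were -0.24 for the dimmer (95% interval -0.40 to -0.08, limma adjusted p = 0.18) and -0.14 for the brighter (95% interval -0.28 to 0.00, limma adjusted p = 0.41), and neither passed under any of the 14 alternatives.

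CDH5, or VE-cadherin, the cadherin of endothelial junctions, read 2558, 2968 and 2626 in barrow pools, against 2653, 2898 and 2598 in boar pools. The groups overlapped fully and had almost the same mean, 2717 ± 220 in barrows and 2716 ± 160 in boars (SD, n = 3 each). The interval of the difference ran from -0.19 to 0.19 (limma adjusted p = 1), or from -12.2% to 13.7%, so a fall of the size of that of TEK lies outside it. The dimmer CDH5 probe set read 565, 599 and 594 in barrow pools, against 526, 612 and 680 in boar pools, with a difference of -0.04 (95% interval -0.29 to 0.21, limma adjusted p = 0.93).

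VWF, the large glycoprotein that tethers platelets to damaged vessel walls, read 1559, 1129 and 1627 in barrow pools, against 1592, 1557 and 1292 in boar pools. Barrow replicate 2 was the lowest of the 6 pools, and the other 2 barrow pools lay among or above the boar pools. The difference was -0.05 (95% interval -0.36 to 0.26, limma adjusted p = 0.93), and without barrow replicate 2 it was 0.11. Of the other VWF probe sets, both untested, the brighter read 83.0 to 90.4 in barrow pools and 40.6 to 127 in boar pools, and the dimmer 7.39 to 11.6 in barrow pools and 8.52 to 33.8 in boar pools.

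The brighter TEK probe set was also set against the brightest probe sets of 3 other endothelial genes within each array, to see whether they changed alike. TEK minus CDH5 on the log2 scale was -1.61, -1.63 and -1.47 in barrow pools, against -1.02, -1.31 and -0.96 in boar pools. The groups did not overlap (difference -0.47, exact permutation p = 0.1, 2-sided, the smallest it can give). This probe set of TEK was the only member called from these same values, and CDH5 had a difference of 0.00. The value therefore repeats the difference of TEK and is not added evidence. TEK minus PECAM1 differed by -0.33 without overlap (exact permutation p = 0.1), and TEK minus VWF by -0.42 with overlap (exact permutation p = 0.3). These were 3 of 9 pairs of probe sets compared in this way, and with a smallest p of 0.1 none could pass a threshold of 0.05 before or after adjustment.

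VEGFA, the growth factor that KDR and FLT1 bind, had 3 tested probe sets with unlike differences. The second-brightest read 2110, 2546 and 2250 in barrow pools, against 2984, 3162 and 2989 in boar pools. The groups were well separated, with means of 2302 ± 222 in barrows and 3045 ± 102 in boars (SD, n = 3 each) and a difference of -0.41 (95% interval -0.59 to -0.22, limma adjusted p = 0.054). It ranked 178 of 14399 by p, just outside the called probe sets, and it passed with the replicate block (adjusted p = 0.024), with array weights (0.0094), under quantile normalization (0.039) and without barrow replicate 2 (0.011). It did not pass under the other 10 alternatives, among them no filter (0.09), no intensity trend (0.21) and leaving out any of the other 5 pools (0.12 to 0.22).

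The brightest VEGFA probe set read 3240, 3556 and 3715 in barrow pools, against 3681, 3429 and 3344 in boar pools. The groups overlapped, and the difference was 0.01 (95% interval -0.17 to 0.18, limma adjusted p = 0.99), so this interval does not reach the value of the second-brightest. The dimmest of the 3 read 196, 274 and 212 in barrow pools, against 272, 271 and 292 in boar pools, a difference of -0.29 (95% interval -0.62 to 0.04, limma adjusted p = 0.49). Within arrays, the brightest minus the second-brightest was 0.61, 0.48 and 0.72 on the log2 scale in barrow pools, against 0.30, 0.12 and 0.16 in boar pools. This gap between the 2 probe sets was 0.41 larger in barrows, without overlap, and with a smallest possible p of 0.1 the test (exact permutation p = 0.1, 2-sided) could not establish an unequal change. Which part of the VEGFA transcript each one reads is not given in the sources used here. The other VEGFA probe set was untested, with signals of 5.33 to 31.8 in barrow pools and 2.4 to 41.9 in boar pools.

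**Figure D3:**
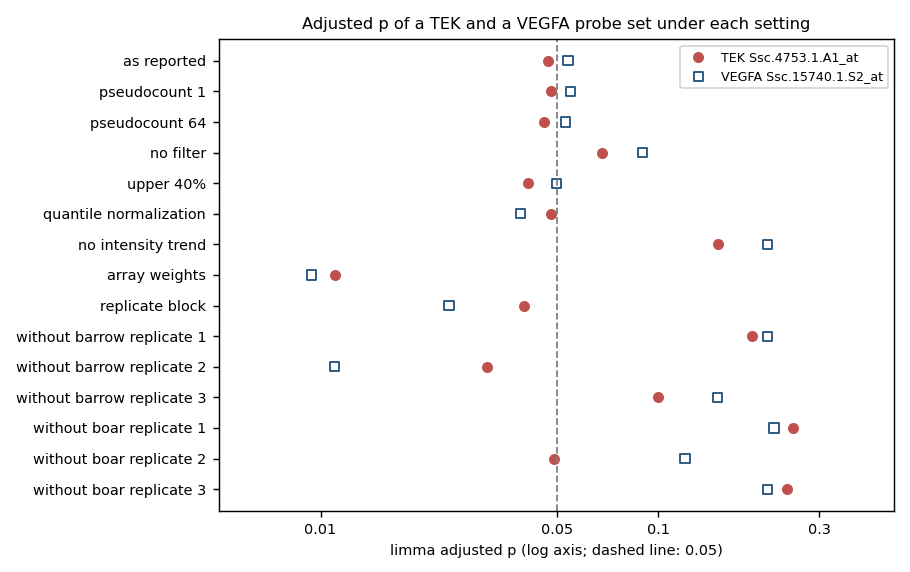
Limma adjusted p (log axis, dashed line at 0.05) of the brighter TEK probe set (red circles) and the second-brightest VEGFA probe set (open blue squares) as reported and under each of 14 alternative settings. TEK passed under 8 of the 14 and VEGFA under 4, and neither passed when barrow replicate 1, barrow replicate 3, boar replicate 1 or boar replicate 3 was left out, nor did VEGFA without boar replicate 2.

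Across the tested member probe sets, 13 of 15 lay below 0 with a median of -0.17, while 53.4% of all tested probe sets lay below 0 with a median of -0.01. The members were chosen with earlier results of these data known, and probe sets of the same gene are not independent. The counts of this paragraph are therefore a description and not a test. The groups did not overlap, with barrows lower, in 6 of the 15, and in 9.76% of all tested probe sets. In none were they separated with barrows higher, against 8.38% of all. These 6 probe sets represent 5 genes, since PECAM1 contributes 2. The other 8 member probe sets fell under the filter, with signals from 1.2 to 127, and all 8 had overlapping groups. Counting 1 probe set per gene, the brightest tested, 8 of 10 genes lay below 0 with a median of -0.10, where 2758 of 5356 genes did, with a median of -0.01.

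The genes were then followed over the 6 pools, 1 probe set per gene. Averaged over the 9 genes other than VEGFA, with each gene centred on its own mean, the log2 signal was -0.09, -0.10 and -0.03 in barrow pools, against 0.03, 0.10 and 0.10 in boar pools. Without TEK it was -0.05, -0.10 and -0.01 in barrow pools, against -0.01, 0.10 and 0.07 in boar pools, so that barrow replicate 3 and boar replicate 1 met. As a description over 6 pools that include both groups, TEK correlated with TIE1 at 0.81, with KDR at 0.74, with ENG at 0.73 and with PECAM1 at 0.71, with VEGFA at 0.16, with CDH5 at 0.01, with VWF at -0.03, with EDNRB at -0.06 and with FLT1 at -0.62. TIE1 and ENG correlated at 0.88. CDH5 and EDNRB correlated at 0.92, both being highest in replicate 2 of each group.

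**Figure D4:**
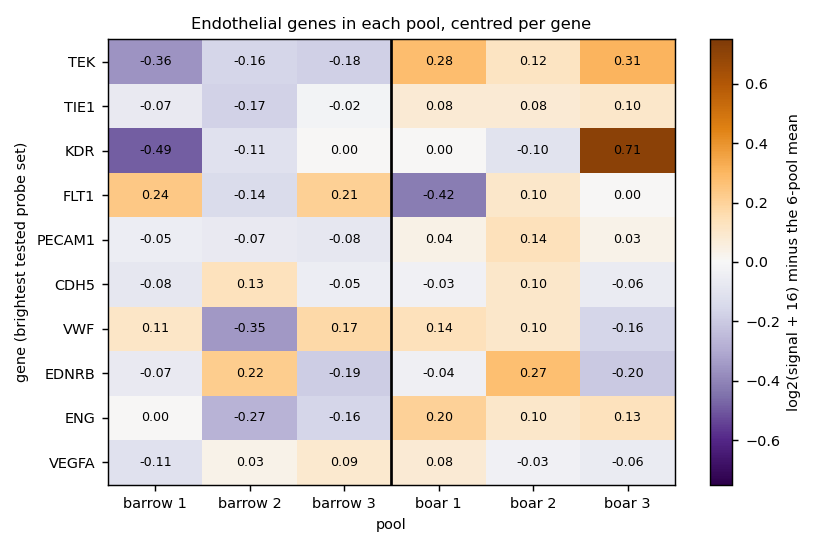
Log2(signal + 16) of each gene's brightest tested probe set in each pool, minus that gene's mean over the 6 pools, with barrow pools left of the black line. TEK runs from -0.36 to -0.16 in barrow pools and from 0.12 to 0.31 in boar pools, while CDH5 and EDNRB are raised in replicate 2 of both groups and KDR is set apart by boar replicate 3 at 0.71.

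Profiles over the 6 pools were also compared with the mean of those 9. The 10 members and the genes of the vascular lists described below were left out, so no such gene could appear. Among the remaining genes the most alike were SSR3 (Pearson r = 0.998) and SEC61B (0.993), of the translocation machinery of the endoplasmic reticulum. FBXO11 (0.989), a ubiquitin ligase subunit, PTPRC (0.988), the leukocyte surface phosphatase CD45, and ANKRD44 (0.987) came next. The 5 were taken from 5224 genes, of which 78 had an r above 0.9, and their own differences ran from -0.50 for ANKRD44 (limma adjusted p = 0.083) to -0.10 for SSR3 (limma adjusted p = 0.63). None of the 5 was called.

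The wider vascular genes were taken from 7 lists covering ligands, receptors, junctions, transcription factors, barrier and clotting genes, signal transduction and the oxygen response. Of 254 listed genes that are not among the 10 described above, 142 had a probe set and 122 were tested. Of these 1 fell and none rose, where 1.51% of all genes were called. With the replicate block 5 fell and 1 rose, where 3.1% of all genes were called. The groups did not overlap in 24 of the 122 with barrows lower and in 4 with barrows higher, against 10.1% and 9.52% of all genes. The median difference of the 122 was -0.07, with 88 below 0. At an unadjusted p under 0.05 stood 13.7% of all 5356 genes, the share beside which the counts of each list are to be read. The lists too were chosen with earlier results of these data known, so their counts are a description.

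The single gene that fell was LAMB1, the laminin beta chain of vessel and other basement membranes. It read 3607, 3197 and 3487 in barrow pools, against 4602, 4395 and 4632 in boar pools, without overlap. Its difference was -0.40 (95% interval -0.57 to -0.24, limma adjusted p = 0.029), and its other tested probe set had -0.29. No vascular list gene, LAMB1 included, passed with no filter, with no intensity trend, or when barrow replicate 1, barrow replicate 3, boar replicate 1 or boar replicate 3 was left out. LAMB1 belongs to the barrier and clotting list, in which 19 of 24 tested genes lay below 0 (median -0.10). In either direction, 9 of the 24 (37.5%, against 13.7% of all genes) had an unadjusted p under 0.05. In that list PROCR, the endothelial protein C receptor, had -0.45 (adjusted p = 0.11) and PLAT, tissue plasminogen activator, -0.33 (adjusted p = 0.097), both with separated groups. Groups were separated with barrows lower in 8 of the 24, against 10.1% of all genes.

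Of the vascular growth factors and other ligands 7 of 16 tested lay below 0 (median 0.03), 0 were called by limma and 1 (6.25%) had an unadjusted p under 0.05. That 1 was VEGFB, a ligand of FLT1, with 2906, 3303 and 2826 in barrow pools, against 2625, 2583 and 2713 in boar pools. Its difference was 0.19 (95% interval 0.01 to 0.36, limma adjusted p = 0.39). TGFB2, a transforming growth factor, had 0.21 and THBS1, an inhibitor of vessel growth, 0.15 (adjusted p = 0.57 and 0.52), and the other probe set of TGFB2 had -0.16. The ligands of the receptors above were looked up after their values were seen. The angiopoietins that bind TEK had differences of 0.02 for ANGPT1 (95% interval -0.42 to 0.46) and 0.12 for ANGPT2 (95% interval -0.20 to 0.43), and EDN1, the endothelin that EDNRB binds, had -0.19 (95% interval -0.53 to 0.15). All 3 had overlapping groups.

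Other vascular receptors lay below 0 in 14 of 18 tested genes (median -0.14), with 0 called by limma and 6 (33.3%, against 13.7% of all genes) at an unadjusted p under 0.05. GPIHBP1, which anchors lipoprotein lipase on capillaries, read 530, 632 and 532 in barrow pools, against 847, 803 and 681 in boar pools (difference -0.45, limma adjusted p = 0.12). RAMP2, which makes the calcitonin receptor-like receptor respond to adrenomedullin, read 1947, 1999 and 1708 in barrow pools, against 2511, 2371 and 2220 in boar pools (difference -0.33, adjusted p = 0.13, and 0.048 with the block). ITGAV, an integrin subunit, had -0.39 (adjusted p = 0.069). SCARB1, a lipoprotein receptor named after its values were seen because it also passed with the block (adjusted p = 0.047), had -0.34 (adjusted p = 0.13 without it).

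Of the other junction and adhesion genes 17 of 23 lay below 0 (median -0.07), with 0 called by limma and 2 (8.70%, against 13.7% of all genes) at an unadjusted p under 0.05. CLDN5, the claudin of endothelial tight junctions, read 1271, 1530 and 1005 in barrow pools, against 1672, 1686 and 1777 in boar pools (difference -0.45, limma adjusted p = 0.17). ICAM2, an adhesion molecule for leukocytes, had -0.47 (adjusted p = 0.20) and JAM3, a junctional adhesion molecule, -0.20 (adjusted p = 0.46). In all 3, named for the smallest p in the list, the pools of the groups were separated, and in CLDN5 the barrow pools were widely spread. Groups were separated with barrows lower in 4 of the 23, against 10.1% of all genes.

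Endothelial transcription factors lay below 0 in 12 of 16 tested genes (median -0.09), with 0 called by limma and 2 (12.5%, against 13.7% of all genes) at an unadjusted p under 0.05. EPAS1, the hypoxia-inducible factor abundant in endothelium, read 1640, 1799 and 1787 in barrow pools, against 2298, 2119 and 2207 in boar pools (difference -0.34, limma adjusted p = 0.080). ERG, an ETS factor of endothelial identity, read 782, 729 and 787 in barrow pools, against 938, 928 and 835 in boar pools (difference -0.23, adjusted p = 0.36). RBPJ, the DNA-binding partner of Notch, had -0.16 (adjusted p = 0.43), with -0.34 and -0.31 in its other probe sets.

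Downstream signalling genes lay below 0 in 12 of 15 (median -0.07), with 0 called by limma and 2 (13.3%, against 13.7% of all genes) at an unadjusted p under 0.05. AKT1, a kinase that both receptor families activate and that most cells use, had -0.38 (limma adjusted p = 0.083, and 0.035 with the block), while the adaptors GAB1 and CRK had -0.19 and -0.20 (adjusted p = 0.37 and 0.43). Oxygen response genes were mixed, with 8 of 13 below 0 (median -0.05), 0 called by limma and 3 (23.1%) at an unadjusted p under 0.05. PGK1, a glycolytic enzyme, had 0.32 (adjusted p = 0.078, and 0.029 with the block) and LOX, which crosslinks collagen, -0.37 (adjusted p = 0.15, and 0.035 with the block). EPAS1 belongs to this list as well.

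**Figure D5:**
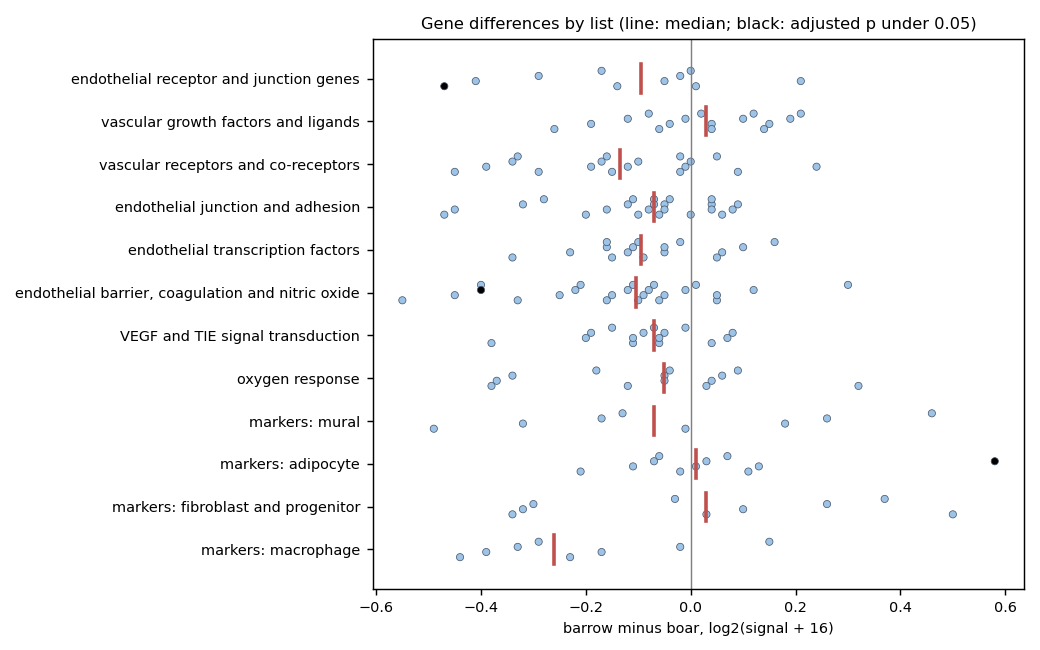
Barrow minus boar difference on log2(signal + 16) of each tested gene (1 probe set per gene) in the endothelial receptor and junction genes, the 7 vascular lists and 4 marker lists of other cells, with the median as a red line and called genes in black. The receptor list has a median of -0.14 and the ligand list one of 0.03, and of the lists drawn here the macrophage markers have the lowest median, -0.26.

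Markers of other cells in backfat were read beside these results. Macrophage markers lay below 0 in 7 of 8 tested genes (median -0.26), with summed signals of 8267 to 9587 in barrow pools and 8767 to 11113 in boar pools. Limma called 0 of them, with 4 (50.0%, against 13.7% of all genes) at an unadjusted p under 0.05, and C1QA, a complement subunit made by macrophages, had -0.44 (adjusted p = 0.13, and 0.035 with the block). The 4 tested lymphocyte markers of 15 listed were all below 0 (median -0.27), with sums of 406 to 481 in barrow pools and 431 to 606 in boar pools. All 4 were dim, with mean log2 values of 6.86 to 7.41, against 6.76 for the dimmest probe set tested. PTPRC, which is not particular to lymphocytes among leukocytes, was the only 1 at an unadjusted p under 0.05. Mural cell markers, of pericytes and smooth muscle, lay below 0 in 5 of 8 (median -0.07, sums of 14448 to 18858 in barrow pools and 18032 to 20359 in boar pools). The mural markers ran from KCNJ8, a potassium channel of pericytes, at -0.49 (limma adjusted p = 0.057, and 0.048 with the block) and ACTA2, smooth muscle actin, at -0.32 to RGS5 at 0.18, CNN1 at 0.26 and DES at 0.46, of which none passed without the block. The part of these cells in the endothelial results was not tested.

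Adipocyte markers were centred near 0 (5 of 11 below, median 0.01, sums of 92473 to 100416 in barrow pools and 97431 to 100391 in boar pools). Fibroblast and progenitor markers had a median of 0.03 but differed both ways (4 of 9 below, sums of 30340 to 42806 in barrow pools and 35540 to 41451 in boar pools). Of these 3 (33.3%, against 13.7% of all genes) had an unadjusted p under 0.05. FBLN1 had 0.50 (limma adjusted p = 0.069, and 0.047 with the block) and THY1 0.37 (adjusted p = 0.33). DPT had -0.32 (adjusted p = 0.060, and 0.041 with the block). LEP, the adipocyte hormone leptin, rose by 0.58 (limma adjusted p = 0.021). For the lymphatic endothelium 3 of 6 markers were tested, with LYVE1, a hyaluronan receptor, at -0.40 (limma adjusted p = 0.26), CCL21 at -0.48 and PDPN at 0.08. Platelet markers, which bear on PECAM1 and VWF, were at -0.07 for GP9 and -0.10 for ITGB3. Of the red cell markers HBB had -0.04, ALAS2 0.32 and AHSP 0.34. None of the 5 skeletal muscle markers on the array passed the filter, and of the 4 skin epithelium markers on it KRT10 alone did, at -0.17.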

How the data were processed

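The values deposited by the authors are linear intensity units, a single MAS5 signal for each probe set in each pool, with the method taken from the submitters' processing notes. Its version is not given in the sources used here. The 2% trimmed mean of each array was 500.09 to 500.10, and medians were 162 to 173. Present or absent calls did not enter, so no probe set is described as above or below background. Precision is limited by having 6 arrays. In the platform annotation 10099 of 24123 probe sets name 1 gene, 198 name several and 13826 none. Gene identifiers of 9989 led to the same symbol in RefSeq (Sscrofa11.1), the 10 genes described included. Positions in the genome are not given, since the files name no build. No probe, promoter or protein sequences were used here.

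The 124 control probe sets were left out, signals were transformed to log2(signal + 16), and 14399 probe sets (the upper 60% by mean, about 92.7 or more) were tested, barrow against boar, with limma 3.58.1 in R 4.3.3 (lmFit, eBayes with an intensity trend, 2-sided, Benjamini-Hochberg, threshold 0.05). The fit was tested on simulated data. A gene in a list stands for its brightest tested probe set. Values between 2 probe sets of an array were compared by an exact permutation test over pools. Alternatives were pseudocounts 1 and 64, no filter or the upper 40%, quantile normalization, no trend, array weights, the replicate block and leaving out each pool. Named genes were all 10 members, list genes that were called and the 3 per list with the smallest p. To these were added the 5 genes with the most similar profile, taken from outside the members and the vascular lists. Other list genes are marked where they appear. Single cell type markers and AHSP, ALAS2 and HBB were named after their values were seen. The members and lists were chosen with earlier results of these data known.

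Both groups are numbered 1 to 3. Residuals of same-numbered pools correlated at 0.12, 0.17 and 0.26, all above the 0.1 that was required, against -0.19 to -0.01 for other combinations. Residuals are centred within each group, so the other combinations are not independent of the same-numbered ones. The reported fit has no block, and the numbers were used as pairs in the replicate block alternative alone. Blocked values are given where they change the call of a member or list gene. What a number shares is not stated.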

Additional observations from a re-analysis of the deposited data

How the results depend on the processing

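The number of member probe sets called was 1 as reported, 0 without a filter and without the intensity trend, 2 under quantile normalization, with array weights and with the replicate block, and 0 to 2 when a pool was left out. The counts over all probe sets were 167, then 96 without a filter, 32 without the trend, 425 with array weights, 338 with the block and 24 to 291 without a pool. Vascular list genes called were 1, then 0 without a filter and without the trend, 9 with array weights, 6 with the block and 0 to 5 without a pool. The causes were not tested. The block changed no call of a member probe set other than that of the second-brightest VEGFA probe set. Direction changed in probe sets with a difference near 0: VWF had 0.02 with array weights, and the brightest VEGFA probe set -0.02 under quantile normalization and -0.03 with array weights. With a pool left out, differences ran from -0.07 to 0.05 and from -0.14 to 0.04 for the brighter and the dimmer CDH5 probe set, from -0.15 to 0.11 for VWF, from -0.14 to 0.11 for EDNRB and from -0.04 to 0.06 for the brightest VEGFA probe set. The other 10 tested member probe sets kept their direction under every alternative that tested them. Low signal goes with the widest intervals, those of KDR, FLT1 and the dimmer TEK probe set.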
